A study of Arabidopsis thaliana with 4 samples.

Results

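Nuclear genes of the photosynthetic apparatus were followed in 14-d-old Arabidopsis thaliana plants that lacked VIP3, a WD-repeat protein of the plant Paf1 complex (Paf1C), which accompanies elongating RNA polymerase II. The genes were chosen by symbol, as nuclear genes whose single symbol in the array annotation begins with LHCA, LHCB, PSA, PSB, PNSL, PNSB, RBCS, FTSH, PPL or PQL, or is RCA. This rule found 9 genes among the 13355 genes named by 1 probe set or more. They were LHCB4.1, LHCB4.2, LHCB4.3, PSBW, PSBY, PSB27, PSAE-1, PSAN and RCA, each read by 1 probe set. In the RefSeq annotation of the TAIR10.1 assembly 53 nuclear genes had symbols that fit the same rule, and the other 44, among them all those for the photosystem I antenna, the small subunit of Rubisco and the FtsH proteases, were not analysed here.

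The series held 4 Affymetrix ATH1 arrays of total RNA, 2 from vip3 mutants and 2 from wild-type (WT) plants. Both genotypes were grown on soil, and the aerial tissue was taken. Each array carried a pool of 3 independently derived samples of many plants, so that the spread between arrays was that between pools. The mutants carried vip3-1, which the study describes as a null allele in the homozygous state. It was the single allele examined. For the WT the sources used here name no accession. VIP3 itself had 0 probe sets named for it alone, so the genotypes could not be checked on the mutated gene. Values are MAS5 signals, a linear intensity per probe set that the authors' software scales to a common level on each array.

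In photosynthesis, photosystem II takes electrons from water and photosystem I passes them on to ferredoxin, each fed with light energy by chlorophyll-binding antenna proteins in the thylakoid membrane. The large reaction-centre subunits are made from plastid genes, whereas the antenna proteins and many small subunits are encoded in the nucleus and imported. Rubisco, which fixes carbon dioxide in the stroma, likewise combines a plastid-encoded large subunit with a nuclear-encoded small one, and needs the nuclear-encoded enzyme Rubisco activase to stay active. Transcripts of these genes are among the most abundant in green leaves and respond strongly to light and to the state of the plastid.

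LHCB4.3 was the only gene of this group that limma called different in vip3 plants at an adjusted p under 0.05. Its signal was 2163 and 2286 in vip3 plants, against 1344 and 1248 in WT plants. Both vip3 pools lay well above both WT pools, and the gap between the genotypes was several times that between pools of a genotype. The fold change was 1.72 (95% interval 1.52 to 1.94), or 0.78 ± 0.07 (SE, n = 2 per genotype) on the log2 scale, with an adjusted p = 0.0012 in limma over all 22746 probe sets. LHCB4.3 was thus 1 of 9 genes called at an adjusted p under 0.05, where 9.8% of all probe sets were called. Among the 3371 probe sets with a geometric mean signal of 1000 or more, a level that all 9 genes reached and that was set after the values were seen, 23.8% were called. The call of LHCB4.3 held when each array was left out in turn, with log2 fold changes from 0.73 to 0.83 and adjusted p-values in limma from 0.0036 to 0.04. It was lost when limma's prior variance was held the same at all signal levels (adjusted p = 0.20), a setting under which no probe set of the whole array passed.

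**Figure D1:**
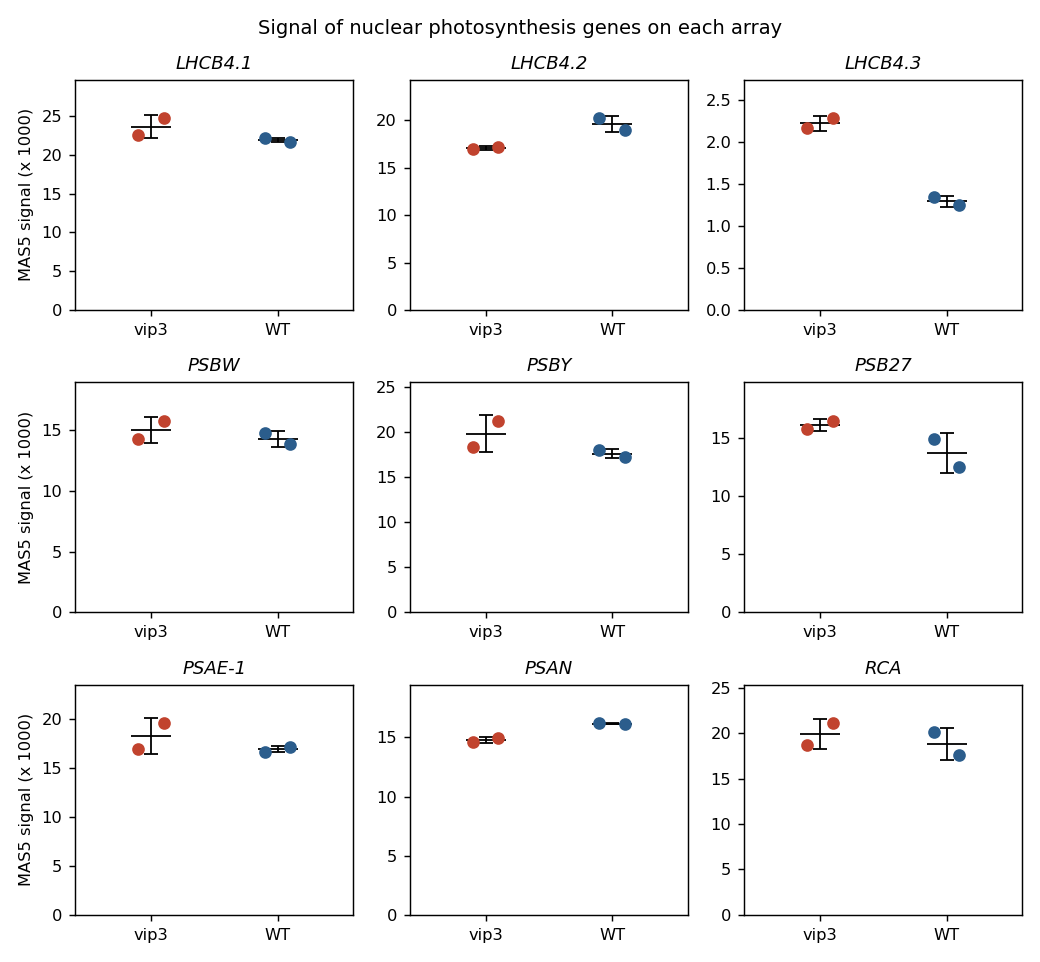
MAS5 signal (y axis, from 0, in units of 1000) of the 9 nuclear photosynthesis genes in vip3 and WT plants. Points are single arrays, horizontal lines are means and bars are SDs of 2 arrays; LHCB4.3 stands at 2163 and 2286 in vip3 plants and at 1344 and 1248 in WT plants, and the other 8 genes had no call.

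LHCB4.3 belongs to a small gene family that encodes CP29, a monomeric antenna protein that sits between the photosystem II core and the outer, trimeric antenna. LHCB4.1 and LHCB4.2, the other members of the family, did not pass. LHCB4.1 had signals of 22553 and 24728 in vip3 plants, against 22102 and 21676 in WT plants. Both vip3 values were above both WT values, but the nearest vip3 and WT values were closer together than the vip3 pools were to each other. Its log2 fold change was 0.11 ± 0.09 SE (adjusted p = 0.56 in limma). LHCB4.2 had signals of 16960.4 and 17214 in vip3 plants, against 20236 and 18992 in WT plants. These values did not overlap either, and both vip3 pools were the lower ones. The log2 fold change of LHCB4.2 was -0.20 ± 0.09 SE (adjusted p = 0.22 in limma), and its 95% interval ran from -0.40 to 0.0055. The 3 related genes therefore had a called increase, an uncalled positive difference and an uncalled negative difference.

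The balance between the CP29 genes was compared within arrays, where a factor common to all signals of an array cancels. A shift between arrays that depends on the signal level does not cancel, and LHCB4.3 was much dimmer than LHCB4.1 and LHCB4.2. The log2 ratio of LHCB4.3 to LHCB4.2 was 0.98 higher in vip3 than in WT plants, and that of LHCB4.3 to LHCB4.1 was 0.67 higher. The log2 ratio of LHCB4.2 to LHCB4.1 had a difference of -0.31. In each of these 3 ratios both vip3 arrays lay on one side of both WT arrays. The 3 ratios are not independent, since each follows from the other 2. Of all single probe sets, 52.2% had the genotypes apart in this way. Among the 3371 with a geometric mean signal of 1000 or more, the genotypes overlapped for only 998. An exact two-sided permutation test over the arrays gave p = 0.33 for each ratio, also after adjustment over the 3 pairs, which is the smallest p that 2 arrays against 2 can give. The differences between the genes were thus not tested beyond that limit. The 95% interval of the log2 fold change of LHCB4.3 (0.61 to 0.95) did not meet those of LHCB4.1 (-0.11 to 0.33) and LHCB4.2 (-0.40 to 0.0055).

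The 3 subunits and assembly factors of photosystem II had positive differences that did not pass. PSB27, a lumenal protein that assists the assembly and repair of photosystem II, had signals of 15825 and 16541 in vip3 plants, against 14959 and 12513 in WT plants. Both vip3 values were the higher ones, while the WT pools differed from each other by more than the nearest vip3 and WT values did. Its log2 fold change was 0.24 ± 0.11 SE (adjusted p = 0.22 in limma). PSBY, a small subunit of the photosystem II core, had 18422 and 21320 in vip3 plants, against 18002 and 17293 in WT plants. The groups were apart, but vip3 replicate 1 lay close to the WT pools, and the log2 fold change was 0.17 ± 0.10 SE (adjusted p = 0.38 in limma). PSBW, a small subunit that helps to hold the antenna on photosystem II, had 14209.8 and 15761 in vip3 plants, against 14748 and 13805 in WT plants. Its groups overlapped, and its log2 fold change was 0.07 ± 0.09 SE (adjusted p = 0.73 in limma).

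The 2 subunits of photosystem I had differences of opposite sign, neither of which passed. PSAE-1, which encodes a stromal subunit at the docking site of ferredoxin, had signals of 16937 and 19596 in vip3 plants, against 16687 and 17139 in WT plants. Vip3 replicate 1 fell between the WT pools, and the log2 fold change was 0.11 ± 0.10 SE (adjusted p = 0.59 in limma). PSAN encodes a lumenal subunit that takes part in the docking of plastocyanin. It had 14617 and 14948 in vip3 plants, against 16211 and 16113 in WT plants, with both vip3 pools below both WT pools. The WT pools of PSAN differed by 0.01 on the log2 scale and its vip3 pools by 0.03, and its log2 fold change was -0.13 ± 0.08 SE (adjusted p = 0.41 in limma).

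RCA encodes Rubisco activase, which frees the active site of Rubisco from bound sugar phosphates. It had signals of 18719 and 21123 in vip3 plants, against 20093 and 17621 in WT plants. The 4 values interleaved, so that the genotypes were not apart, and the log2 fold change was 0.08 ± 0.11 SE (adjusted p = 0.73 in limma). The sign of this difference turned when WT replicate 2 or vip3 replicate 2 was left out.

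**Figure D2:**
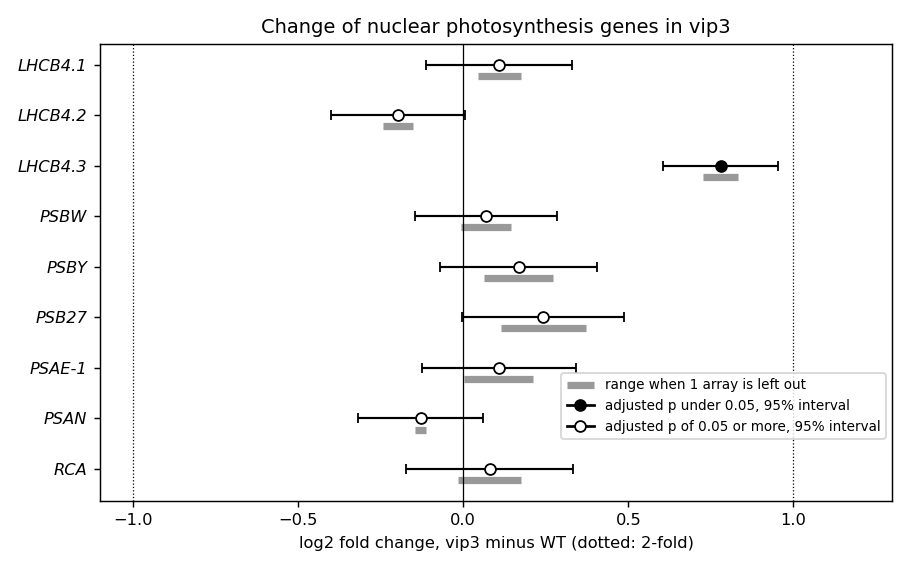
Log2 fold change (x axis, vip3 minus WT) of the 9 nuclear photosynthesis genes from the fit of limma, with 95% intervals; filled points passed an adjusted p under 0.05 and grey bars span the values with each array left out. LHCB4.3 lies at 0.78, and the other 8 genes lie between -0.20 and 0.24.

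As a group the 9 genes had a median log2 fold change of 0.11, against 0.0012 over all probe sets. Of the 9, 1 was called higher (4.73% of all probe sets), 0 were called lower (5.07%) and 8 did not pass. The study's methods name a p under 0.001 and a 2-fold change, without saying whether that p was adjusted. With an unadjusted p limma called 0 of the 9, where 1.56% of all probe sets passed, because LHCB4.3 changed less than 2-fold. At an unadjusted p under 0.05 limma gave 1 of the 9, where 23.7% of all probe sets passed. Of the 3371 probe sets with a geometric mean signal of 1000 or more, 1517 passed. The count among the 9 was 4 with quantile normalization (LHCB4.2, LHCB4.3, PSB27 and PSAN), where 5388 of all 22746 probe sets passed. With robust eBayes it was 3, where 5401 of all probe sets passed. Without the dimmest 40% of probe sets it was also 3, where 4694 of the smaller number kept passed, a larger share than over all probe sets. Both vip3 arrays lay above both WT arrays for 4 genes (25.9% of all probe sets) and below them for 2 genes (26.3%). The genotypes were thus apart for 6 of the 9 genes, where this held for 52.2% of all probe sets, and overlapped for the other 3. All 9 genes were bright, and bright probe sets were apart more often. Of the 3371 with a geometric mean signal of 1000 or more, 1263 were higher in both vip3 arrays, 1110 were lower and 998 overlapped. The 6 of 9 did not stand out from these. For the 8 genes without a call the 95% intervals ran from a fold of 0.757 at the lowest to 1.40 at the highest. A change of 1.5-fold in either direction thus lay outside each of these intervals, which were not adjusted for being read together. With the prior variance held the same at all signal levels, the bounds reached 0.70 and 1.61. Then 7 of the 8 intervals stayed within 1.5-fold in either direction. With 1 array left out, 7 or 8 of the 8 intervals stayed within that range.

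The spread between pools and the prior variance of limma together set how small a change could be called. Of the 7.5 degrees of freedom of the fit, 5.5 came from the prior. PSAN, whose pools differed by 0.03 in vip3 plants and 0.01 in WT plants, had an SE of 0.08. The median absolute log2 difference between arrays of a genotype was 0.13 for the 9 genes in vip3 plants and 0.09 in WT plants. Over probe sets with a geometric mean signal of 1000 or more it was 0.09 in vip3 plants and 0.07 in WT plants, and over all probe sets 0.22 in vip3 plants and 0.20 in WT plants. The differences between pools were shared by the genes. Vip3 replicate 2 had a higher signal than vip3 replicate 1 for 9 of 9 genes, by a median of 0.13 on the log2 scale. Over all probe sets it was higher for 12350 of 22746, by a median of 0.03. WT replicate 1 was above WT replicate 2 for 8 of 9 genes, PSAE-1 being the exception. A shift like that of the 9 genes was seen over the 193 probe sets with a geometric mean signal of 10000 or more, a level also set after the values were seen. Of these, 172 were higher in vip3 replicate 2 than in vip3 replicate 1, by a median of 0.13, and their median log2 fold change was 0.08. All of the 9 genes but LHCB4.3 belong to these 193 probe sets. After quantile normalization, which gives the arrays the same distribution of signals, the median log2 fold change of the 9 genes was 0.02. LHCB4.3 then had a log2 fold change of 0.78 (adjusted p = 0.0020 in limma) and LHCB4.2 one of -0.27 (adjusted p = 0.060). The part of the array scaling in the small positive differences was not tested further.

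**Figure D3:**
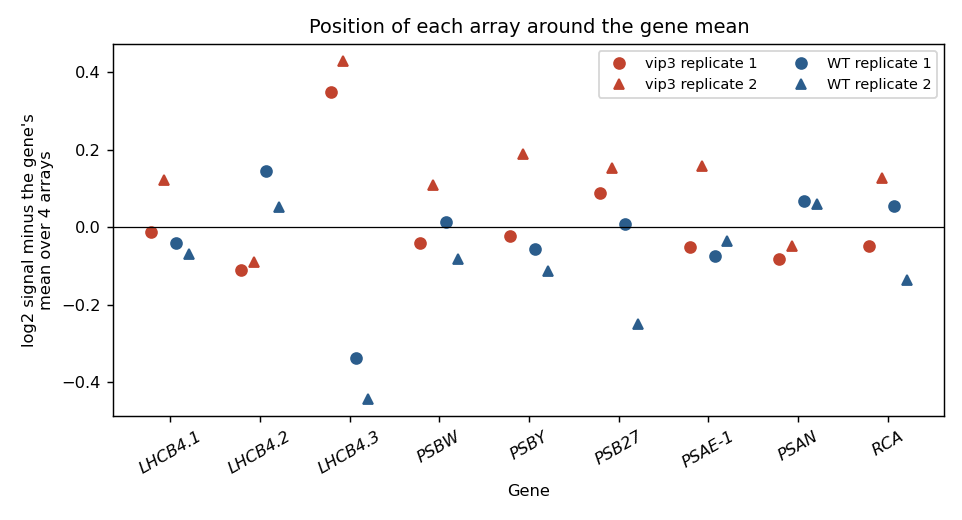
Log2 signal of each array minus the mean of the gene over the 4 arrays (y axis), for the 9 nuclear photosynthesis genes (x axis). Vip3 replicate 2 lies above vip3 replicate 1 for 9 of 9 genes, and LHCB4.3 is the gene where both vip3 arrays lie above 0.3 and both WT arrays below -0.3.

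Other nuclear genes of photosynthesis and greening were taken from 6 lists with 101 genes, of which 22 had a probe set named for them alone. Probe sets with several symbols (503) or none (8794) were not assigned to a gene. The other listed genes were therefore left out, whether or not the array reads them. Of the 22, 1 was called higher in vip3 plants, 2 were called lower and 19 did not pass. Over all probe sets 9.8% were called, and over those with a geometric mean signal of 1000 or more 23.8%. The median log2 fold change of the 22 was 0.08. The lists are described in turn, from electron transport to regulators.

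Of the 18 listed genes for electron transport and the plastid ATP synthase, 3 had a named probe set and none passed. Their log2 fold changes were between 0.10 and 0.32. ATPC1, which encodes the gamma subunit of the ATP synthase, had signals of 17762 and 19904 in vip3 plants, against 18488 and 16730.4 in WT plants (log2 fold change 0.10 ± 0.10 SE, adjusted p = 0.64 in limma). Its groups overlapped.

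Of the 16 listed genes of the Calvin cycle, 2 had a named probe set. SBPASE, which encodes sedoheptulose bisphosphatase of the phase that regenerates the acceptor of carbon dioxide, had signals of 13614 and 13766 in vip3 plants, against 10699 and 10183 in WT plants. Its groups were clearly apart, and the log2 fold change was 0.39 ± 0.08 SE (limma, adjusted p = 0.023). SBPASE was no longer called when any 1 array was left out (adjusted p-values from 0.085 to 0.20), while its log2 fold change stayed between 0.36 and 0.43. PRK, which encodes phosphoribulokinase of the same phase, had 14953 and 15335 in vip3 plants, against 13505 and 12445 in WT plants, and its log2 fold change was 0.22 ± 0.09 SE (limma, adjusted p = 0.16).

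The photorespiration list, whose enzymes recycle the product that Rubisco makes with oxygen, had 4 of 13 genes with a named probe set and none passed. All 4 had both vip3 arrays above both WT arrays, as had 25.9% of all probe sets, with log2 fold changes from 0.04 to 0.40. Among probe sets with a geometric mean signal of 1000 or more, a level that all 4 reached, this held for 1263 of 3371. HPR1 (AT1G68010), which encodes the peroxisomal hydroxypyruvate reductase, had signals of 14754 and 14274 in vip3 plants, against 12237 and 9946 in WT plants. The vip3 pools were close together and the WT pools were not (log2 fold change 0.40 ± 0.11 SE, adjusted p = 0.067 in limma). HPR1 did pass with robust eBayes (adjusted p = 0.034) and without the dimmest 40% of probe sets (adjusted p = 0.039).

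Of the 23 listed genes of chlorophyll synthesis 7 had a named probe set, 2 of them called lower and 5 without a call. Over all probe sets 5.07% were called lower, and 407 of the 3371 with a geometric mean signal of 1000 or more. PORB encodes a protochlorophyllide oxidoreductase, the enzyme of the light-dependent step of the pathway. It had signals of 8625 and 9947 in vip3 plants, against 13390 and 13930 in WT plants. Both vip3 pools were far below both WT pools, and the log2 fold change was -0.56 ± 0.09 SE (limma, adjusted p = 0.011). GSA1 encodes a glutamate semialdehyde aminotransferase near the entry to the pathway. It had 2101 and 2289 in vip3 plants, against 2916 and 2952 in WT plants, and its log2 fold change was -0.42 ± 0.07 SE (limma, adjusted p = 0.012). The pools of GSA1 were also apart. GSA1 was not called when any 1 array was left out (adjusted p-values from 0.055 to 0.086), and PORB was called then only without vip3 replicate 2 (adjusted p-values from 0.038 to 0.076). The other 5 genes had log2 fold changes from -0.22 for HEME2 to 0.22 for CHLM, which encode an enzyme of the shared porphyrin branch and the magnesium protoporphyrin methyltransferase.

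Of the 15 listed factors for assembly and repair of the photosystems 5 had a named probe set. None passed, with log2 fold changes from -0.18 to 0.03. HCF101, which takes part in supplying iron-sulphur clusters to photosystem I, had signals of 2381 and 2320 in vip3 plants, against 2579 and 2094 in WT plants. Its vip3 values lay between those of WT. Of 16 listed regulators of greening HYH alone had a named probe set. It encodes a bZIP factor related to HY5, a promoter of light-dependent development. HYH had 164 and 115 in vip3 plants, against 93.5 and 55 in WT plants (log2 fold change 0.94 ± 0.35 SE, adjusted p = 0.16 in limma). Both vip3 values were the higher ones, at a signal where pools differed widely.

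**Figure D4:**
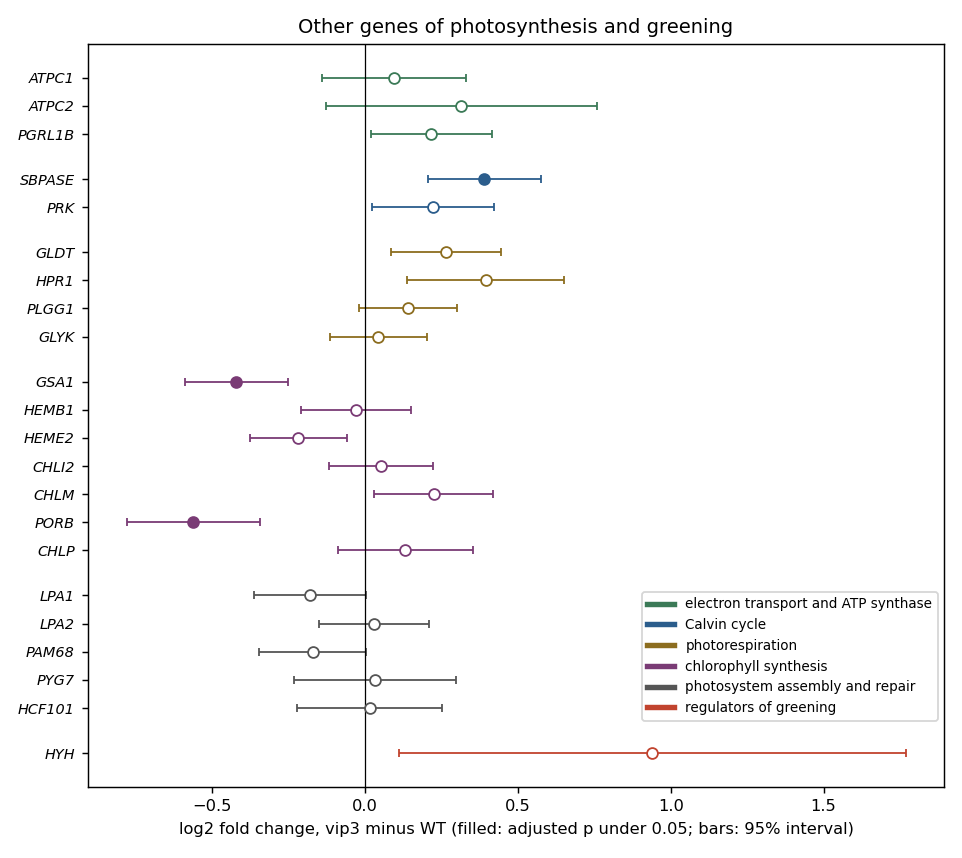
Log2 fold change (x axis, vip3 minus WT) with 95% intervals from limma for 22 other genes of photosynthesis and greening, coloured by list; filled points passed an adjusted p under 0.05. SBPASE lies at 0.39, and GSA1 and PORB lie at -0.42 and -0.56.

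The plastid-encoded partners of these genes were read on the same arrays. Of 35 plastid genes for photosystem, cytochrome, ATP synthase and Rubisco subunits and the assembly factors ycf3 and ycf4, 31 had a positive log2 fold change, the median was 0.16, 1 was called higher and 0 were called lower. Over all probe sets 11393 of 22746 had a positive log2 fold change, 4.73% were called higher and 5.07% lower. Both vip3 arrays lay above both WT arrays for 13 of the 35 (25.9% of all probe sets) and below them for 0 (26.3%). The genotypes overlapped for the other 22. The 35 genes were read on the same 4 arrays, so that their signs are not independent. At an unadjusted p under 0.05 limma gave 7 of the 35, where 23.7% of all probe sets passed. The called gene was rbcL, which encodes the large subunit of Rubisco (log2 fold change 1.11, adjusted p = 0.0038 in limma), against 0.08 for RCA. Without vip3 replicate 2 the adjusted p of rbcL was 0.079. The difference between the nuclear and the plastid genes was not tested.

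In whole aerial tissue, fewer cells of a type and less RNA per cell cannot be told apart. Of 7 root markers 3 had a named probe set. Their summed signal was 2741 and 3327 in vip3 plants, against 4868 and 5788 in WT plants. Nearly all of it came from PYK10, a beta-glucosidase gene. PYK10 was called lower (log2 fold change -0.82 ± 0.12 SE, adjusted p = 0.0062 in limma). Removal of vip3 replicate 1 gave it an adjusted p = 0.086 and removal of vip3 replicate 2 one of 0.053. The root-hair genes EXPA7 and EXPA18 had signals no higher than 56.1 in vip3 plants and 71.6 in WT plants. Their log2 fold changes had opposite signs, -0.49 for EXPA7 (adjusted p = 0.65 in limma) and 0.60 for EXPA18 (adjusted p = 0.79 in limma). In both genes the genotypes overlapped. Of 7 flower markers only the anther marker A9 had a named probe set. A9 had 39.6 and 22.6 in vip3 plants, against 16.3 and 4.9 in WT plants (adjusted p = 0.29 in limma). Of 6 senescence markers only WRKY53 had a named probe set. WRKY53 had 231 and 133 in vip3 plants, against 87.5 and 205 in WT plants (adjusted p = 0.66 in limma). None of 4 seed markers had a named probe set. The part of these genes' tissues in the changes of LHCB4.3, SBPASE, PORB and GSA1 was not tested. The correlation of log2 signals across all probe sets, which are not independent, was r = 0.95 for the pair of vip3 arrays, 0.953 for the pair of WT arrays and 0.941 to 0.946 for pairs of different genotype. The ratio of 3′ to 5′ signal of the GAPDH control was 1.51 and 1.63 in vip3 plants, against 1.81 and 1.58 in WT plants. For the actin control it was 13.5 and 15.7 in vip3 plants, against 16.1 and 11.3 in WT plants, with the genotypes overlapping.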

How the data were processed

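The deposited values were MAS5 signal intensities on a linear scale, 1 column per array, which the authors made with the MAS 5.0 statistical algorithms (background and mismatch correction, probe set summary and scaling). The study's own calls used GCRMA values, which were not used here. No source used here names the genome build of the array annotation, so no coordinates are printed. After removal of 64 control probe sets, log2 signals of 22746 probe sets were fitted in limma 3.58.1 (R 4.3.3, lmFit and eBayes). The prior variance followed the mean signal. The tests had 7.5 degrees of freedom in total, of which 5.5 came from the prior. Differences are vip3 minus WT. Benjamini-Hochberg adjustment ran over all 22746 p-values. The script was tested on simulated data. With 2 arrays per genotype, the number of arrays limits the precision.

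GEO's platform annotation gave the names of probe sets, and gene identifiers were matched to RefSeq. The members and lists were chosen with earlier results of these data known. All members were named, and from each other list the called genes (at most 4) or, where none passed, that with the highest mean signal. PRK, HEME2, CHLM, EXPA7, EXPA18 and rbcL were named after their values were seen. Alternatives were another prior variance, robust eBayes, an offset of 16, quantile normalization, median centring and removal of dim or shared probe sets. Further ones were the mean of all probe sets of a gene, a replicate block, another threshold and removal of each array.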

Additional observations from a re-analysis of the deposited data

How the results depend on the processing

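With a constant prior variance in eBayes limma called 0 of the 9 genes and 0 of the 22746 probe sets at an adjusted p under 0.05. The unadjusted p was under 0.05 for 1 of the 9 and for 3798 of all probe sets, and 126 met the study's thresholds. At an adjusted p under 0.1 the counts were 1 and 3397. The median log2 fold change of the 9 genes was 0.023 with quantile normalization and between 0.0022 and 0.18 when 1 array was left out, with 1 gene called each time. Over the removal of each array, between 442 and 1332 of all probe sets passed (2229 with all arrays) and between 201 and 394 met the study's thresholds (354 with all arrays). Of 117 values of the 9 genes under other settings, 113 kept their sign and side of the threshold. Several settings left each log2 fold change as it was, so that no sign could turn under them. These were the constant prior variance, robust eBayes, the replicate block and the removal of dim or shared probe sets. Taking the mean of all probe sets of a gene changed nothing, since each of the 9 genes had 1 probe set. The call of LHCB4.3 was lost once, with the constant prior variance, and 3 values changed sign, all with 1 array left out. Without WT replicate 2 RCA was at -0.015, and in the absence of vip3 replicate 2 RCA was at -0.0075 and PSBW at -0.0060, while over the 4 removals RCA reached 0.17 and PSBW 0.14. Of the other named genes HCF101 ranged from -0.13 to 0.17 and WRKY53 from -0.22 to 1.0 over the 4 removals. The cause was not tested. With the replicate block limma called 2339 probe sets, among them 1 of the 9 genes (LHCB4.3, adjusted p = 0.00087), and 358 met the study's thresholds. The sample titles do not say whether same-numbered arrays were handled as pairs. Over all probe sets, same-numbered arrays deviated from their genotype means with a correlation of -0.044. With 2 arrays per genotype this single value cannot decide the question. Settings for the study's thresholds and for genes of other lists were added with the data in view.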
